A study of Mus musculus with 5 samples.

Results

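The digestive proteases of the pancreatic acinar cell were followed through 5 mouse RNA-seq libraries that the labels give as monocytes of bone marrow. The set held 9 genes, taken by exact symbol from a list, of 55291 gene symbols in each library, and all 9 were found. The genes were chosen by their measured counts in these same libraries, higher in the Tet2 mutant than in the wild type, so their levels by genotype are a description and carry no test. There were 3 wild-type libraries (replicates 1, 2 and 3) and 2 Tet2-mutant libraries (replicates 2 and 3, titled HR in the labels), called wild-type libraries 1 to 3 and mutant libraries 2 and 3 below. Tet2 encodes a dioxygenase that acts on methylated cytosine, and blood disorders of the myeloid lineage often carry mutations in it. The allele, how the cells were isolated, the age of the animals, any treatment and whether each library came from its own animal were not given in the sources used here. With n = 3 and n = 2 the SD and SE below measure only the spread between these libraries, which may be technical.

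Acinar cells make digestive proteases as inactive zymogens, pack them into granules and release them through the pancreatic duct into the gut. There enteropeptidase cleaves trypsinogen, and trypsin then activates the other zymogens. Prss2, Try4 and Try5 encode trypsinogens. Ctrb1 encodes a chymotrypsinogen, and Cela1, Cela2a and Cela3b encode elastase precursors of the same serine protease fold. Cpa1 and Cpb1 encode carboxypeptidase precursors, zinc enzymes that trim peptides from the carboxyl end. The acinar transcription factors Ptf1a and Rbpjl drive these genes through paired sites, an E-box and a TC-box. Marrow cells use relatives of these enzymes, such as the neutrophil elastase Elane and the mast cell carboxypeptidase Cpa3.

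The 3 trypsinogens were alike in sequence, which bears on how far their counts can be told apart. The coding sequences of Try4 and Try5 (741 bases each in the GENCODE M21 transcripts) were 97.4% identical, with a longest unbroken identical run of 274 bases. Prss2 was 91.6% identical to Try4 and 90.3% to Try5, with longest runs of 70 and 62 bases. The stretch of 90 bases with the fewest differences among them, coding positions 319 to 408, is shown with the 3 variable positions in capitals.
Prss2: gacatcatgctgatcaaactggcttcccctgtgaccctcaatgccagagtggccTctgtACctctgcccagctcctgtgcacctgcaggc
Try4: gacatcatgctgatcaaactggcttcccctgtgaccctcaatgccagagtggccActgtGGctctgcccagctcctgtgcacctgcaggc
Try5: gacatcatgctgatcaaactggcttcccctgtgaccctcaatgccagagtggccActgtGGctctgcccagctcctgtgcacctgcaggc
Try4 and Try5 read the same over this stretch. The labels do not say how reads that match several genes were counted, so the division of counts between Try4 and Try5 is uncertain. The elastases were 60.0% to 61.7% identical in pairs and Cpa1 and Cpb1 57.5%, with identical runs of at most 21 bases.

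Promoters are shown for the trypsinogen and the elastase with the highest mutant levels per kilobase of exon (Prss2 and Cela2a), for the carboxypeptidase closest to the median pattern of the 9 genes (Cpa1), and for Cela1, which stood apart in the wild type. Each is the 250 bases before the RefSeq start in GRCm38.p6, 5′ to 3′ on the strand of the gene, with CACCTG (an E-box) and TTTCCC (a TC-box) on either strand in capitals. The windows are chr6:41521526-41521775 (+) for Prss2, chr4:141826006-141826255 (-) for Cela2a, chr6:30638968-30639217 (+) for Cpa1 and chr15:100687921-100688170 (-) for Cela1.
Prss2: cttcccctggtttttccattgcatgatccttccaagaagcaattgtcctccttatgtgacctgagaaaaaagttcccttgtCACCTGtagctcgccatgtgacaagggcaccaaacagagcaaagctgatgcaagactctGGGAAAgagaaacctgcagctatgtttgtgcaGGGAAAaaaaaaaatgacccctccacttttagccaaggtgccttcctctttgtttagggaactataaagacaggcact
Cela2a: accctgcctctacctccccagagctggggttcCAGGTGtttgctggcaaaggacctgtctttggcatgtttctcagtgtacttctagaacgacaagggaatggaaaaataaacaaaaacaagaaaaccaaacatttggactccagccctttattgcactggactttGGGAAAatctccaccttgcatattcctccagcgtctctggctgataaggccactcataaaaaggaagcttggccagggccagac
Cpa1: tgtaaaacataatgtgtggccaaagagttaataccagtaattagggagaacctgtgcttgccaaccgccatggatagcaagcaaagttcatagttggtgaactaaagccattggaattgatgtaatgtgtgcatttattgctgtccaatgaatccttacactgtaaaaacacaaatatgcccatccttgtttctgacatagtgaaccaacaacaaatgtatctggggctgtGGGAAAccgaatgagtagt
Cela1: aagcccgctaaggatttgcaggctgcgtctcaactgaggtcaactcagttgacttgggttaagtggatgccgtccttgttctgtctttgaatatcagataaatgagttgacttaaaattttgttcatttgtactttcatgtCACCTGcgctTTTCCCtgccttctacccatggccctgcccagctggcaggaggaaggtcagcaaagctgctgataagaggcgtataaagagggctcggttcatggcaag
Of the 8 genes with a promoter in the RefSeq table, 6 held CACCTG, 5 held TTTCCC and 3 (Prss2, Cela1 and Cela2a) held both. Over all 32851 promoters of this length the shares were 17.22%, 21.95% and 3.61%. A match of 6 letters is a description of the window and not a binding site.

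Gene counts summed to 17459808 in mutant library 2 and to 53789308 to 72414875 in the other 4 libraries. Levels are given as CPM, a gene's count per 1000000 counts of all genes in the library, with a floor set at 3 counts, 0.172 CPM in mutant library 2 and 0.0414 to 0.0558 CPM in the others. The label was checked against marker genes. A list of 13 monocyte genes summed to 1671 to 1762 CPM in the wild type and 2715 to 3285 CPM in the mutant. A list of 8 neutrophil granule genes summed to 51901 to 66902 CPM and to 20613 to 37722 CPM, so neutrophil transcripts outweighed those of monocytes in all 5 libraries. In bulk RNA, fewer cells of a type and less RNA per cell cannot be told apart. Scaling matters for small differences here: over 17062 tested genes the median log2 fold change between the genotypes (mutant against wild type) was -0.07 with TMM scaling and -0.58 with total counts.

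Transcripts of 8 of the 9 proteases were close to absent in the wild type and plain in both mutant libraries. The sum of these 8, all but Cela1, was 2.38, 2.43 and 3.48 CPM in wild-type libraries 1, 2 and 3 and 316 and 1083 CPM in mutant libraries 2 and 3. With Cela1 the sum of all 9 was 46.4, 57.6 and 63.7 CPM in the wild type and 403 and 1264 CPM in the mutant, a log2 ratio of the means of 3.90, against 7.98 without Cela1. The groups did not overlap for any of the 9 genes, where both mutant libraries lay above every wild-type library in 14.1% of tested genes. All 9 passed the filter on low counts and were called higher by edgeR's quasi-likelihood test, as 10.6% of tested genes were. Try4, Try5 and Cela3b (5 to 16 counts per wild-type library) passed the filter through the mutant libraries. Their calls therefore follow in part from the filter. A level at least 10-fold above the pooled wild type in each mutant library was reached by 8 of 9, against 1.03% of tested genes, and Cela1 was the exception. All these counts of genes follow from how the genes were chosen.

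**Figure D1:**
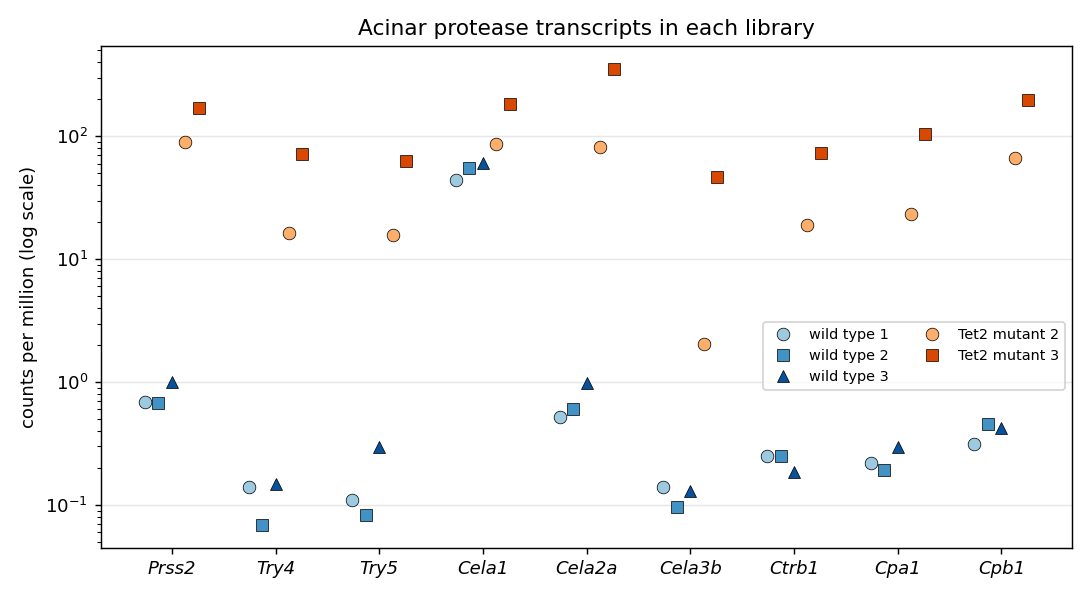
Level of each of the 9 proteases in each library, in CPM on a log scale. Points are single libraries (3 wild type, 2 Tet2 mutant), and Cela1 alone has wild-type points at 44.1 to 60.3 CPM, where the other 8 genes have none above 1.004 CPM.

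Prss2, the trypsinogen with the most counts, lies on chromosome 6 (41521787 to 41525079 in GRCm38, plus strand). It stood at 0.688, 0.677 and 1.004 CPM in wild-type libraries 1, 2 and 3, against 89.9 and 169 CPM in mutant libraries 2 and 3. Against the pooled wild type (147 counts) this was 116-fold (95% exact interval for counting error 98.1 to 139) and 219-fold (186 to 259). Try4 (chromosome 6, 41302269 to 41305532) stood at 0.141, 0.0690 and 0.149 CPM in the wild type, against 16.2 and 72.5 CPM in the mutant. Its neighbour Try5 (41311233 to 41316841, minus strand) stood at 0.110, 0.0829 and 0.297 CPM and at 15.8 and 63.4 CPM. Both were higher in mutant library 3 than in library 2, and the wild-type values rested on 5 to 16 counts each.

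These trypsinogen genes sit inside the T cell receptor beta locus, between the variable segment Trbv1 (40891229) and the diversity segment Trbd1 (41533201). The constant segments Trbc1 and Trbc2, which T cells transcribe, were also higher in the mutant, at 56.5 and 91.9 CPM in library 2 and 76.8 and 87.4 CPM in library 3 against 8.98 to 12.1 CPM in the wild type. Of 10 T cell receptor genes 7 were called higher, against 10.6% of all tested genes, and the list summed to 135 to 247 CPM in the wild type and 926 to 960 CPM in the mutant. The coreceptor genes Cd4 and Cd8a were not called, and their mutant libraries went in opposite directions. They had their lowest values in mutant library 2, at 1.95 and 4.41 CPM, and their highest in library 3, at 11.6 and 47.0 CPM. The wild type was at 3.58 to 6.88 and 5.34 to 7.25 CPM. The part of T cells in the trypsinogen counts was not tested. Other trypsinogens of the locus differed: the gene 2210010C04Rik was at 16.7 and 50.7 CPM in the mutant, whereas Try10 had 16, 19 and 10 counts across the wild type but 0 and 1 in mutant libraries 2 and 3. Try10 was 90.01% identical to Prss2, 93.5% to Try5 and 95.4% to Try4, with a run of 131 bases shared with Try4. The division of counts between Try10 and these genes is therefore uncertain too. Prss1 had 0 counts in all 5 libraries.

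Ctrb1, the chymotrypsinogen (chromosome 8, 111686519 to 111691010), stood at 0.250, 0.249 and 0.186 CPM in wild-type libraries 1, 2 and 3, against 19.1 and 72.8 CPM in mutant libraries 2 and 3. These were 82.4-fold (60.0 to 116) and 315-fold (234 to 434) the pooled wild type. Its neighbours in the genome, Zfp1 and Bcar1, did not pass the test (edgeR's quasi-likelihood adjusted p = 0.928 and 0.265).

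Among the elastases, Cela2a had the highest count of the 9 genes in mutant library 3. Cela2a (chromosome 4, 141814962 to 141826160) stood at 0.516, 0.608 and 0.985 CPM in the wild type, against 82.6 and 354 CPM in mutant libraries 2 and 3. It overlaps Casp9, a caspase gene on the other strand that had 38.6 to 53.9 CPM in the wild type, and because the strand setting of the counting is not given, reads of the overlap cannot be assigned with certainty. Cela2a also lies wholly within the annotated interval of Ctrc (141814962 to 141846359) on the same strand, so a strand setting would not separate those genes. Casp9 itself was at 15.6 and 25.9 CPM in the mutant. Cela3b (chromosome 4, 137420999 to 137430540) stood at 0.141, 0.0967 and 0.1301 CPM in the wild type, against 2.06 and 46.5 CPM in the mutant, resting on 36 counts in library 2 and 2816 in library 3. The mutant libraries thus lay further apart for Cela3b than for any of the other 8 proteases.

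Cela1 did not share the wild-type pattern of the others. Cela1 (chromosome 15, 100674421 to 100687921) stood at 44.1, 55.1 and 60.3 CPM in wild-type libraries 1, 2 and 3, from 2816, 3992 and 3242 counts, and at 87.3 and 182 CPM in mutant libraries 2 and 3. The groups did not overlap, but the ratios to the pooled wild type were 1.65 (1.56 to 1.74) and 3.44 (3.34 to 3.53), or 2.64 and 4.44 with TMM-adjusted library sizes. Its wild-type level went against the label of an acinar transcript, and none of the other 8 proteases shared it. Above the wild-type mean, the mutant libraries held 34.2 and 128 CPM more of Cela1, in a ratio of 3.76, and with TMM-adjusted sizes 74.7 and 157 CPM more, in a ratio of 2.10. Both neighbours of Cela1 are transcribed in marrow, and both rose: Bin2, a membrane-bending protein of leukocytes, from 279 to 387 CPM in the wild type to 706 and 606 CPM in mutant libraries 2 and 3 (edgeR's quasi-likelihood adjusted p = 0.0172), and the glycosyltransferase Galnt6 from 17.5 to 26.1 CPM to 31.0 and 51.2 CPM (adjusted p = 0.0359). Whether any Cela1 reads come from transcripts of these neighbours was not tested.

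Of the carboxypeptidases, Cpa1 (chromosome 6, 30639218 to 30645363) stood at 0.219, 0.193 and 0.297 CPM in the wild type, against 23.5 and 105 CPM in mutant libraries 2 and 3. Cpb1 (chromosome 3, 20248264 to 20275733) stood at 0.313, 0.456 and 0.428 CPM and at 66.5 and 199 CPM. Both were far above the wild type in each mutant library. Cpa3, the mast cell carboxypeptidase, ends 6083 bases from Cpb1 and gave 27.0 to 42.6 CPM in the wild type and 7.79 and 29.0 CPM in the mutant (edgeR's quasi-likelihood adjusted p = 0.609), so these neighbouring genes of 1 family had different patterns.

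Compared per kilobase of exon, Prss2 led in both mutant libraries. Its level was 110 CPM per kilobase in mutant library 2, followed by Cela2a at 47.9 and Cela1 at 37.9, with Cela3b last at 1.24. In library 3, Prss2 at 207 and Cela2a at 206 CPM per kilobase were close, followed by Try4 at 90.5 and Ctrb1 at 83.0, with Cela3b again last at 28.0. The order at the top depends on the gene model, since per kilobase of the longest coding transcript Cela2a came to 331 and Prss2 to 207 in library 3, and Cela1 to 78.8 and Cela2a to 77.2 in library 2. In the wild type Cela1 led at 19.1 to 26.1 CPM per kilobase of exon, and no other protease exceeded 1.23.

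The proportions among the 8 genes other than Cela1 had overlapping intervals between the low wild-type counts and mutant library 2 for 6 of 8 genes, all but Cela3b and Cpb1. Between the wild type and mutant library 3 they overlapped for 5 of 8, Try5, Cela3b, Ctrb1, Cpa1 and Cpb1. Prss2 made up 28.5% of the 515 summed wild-type counts (exact Clopper-Pearson 95% interval 24.7 to 32.7) and 28.5% of 5511 counts in mutant library 2 (27.3 to 29.7), but 15.6% of 65512 counts in library 3 (15.3 to 15.9). Cela2a made up 25.2%, 26.2% and 32.7% in the same order, and Cpb1 14.8%, 21.1% and 18.3%. Cela3b made up 4.47% (2.85 to 6.63) of the wild-type counts and 4.30% (4.14 to 4.46) in mutant library 3, but 0.653% (0.458 to 0.903) in library 2. Trypsinogens together were 38.4%, 38.6% and 28.2%. The intervals cover counting error only and compare libraries, not genotypes.

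**Figure D2:**
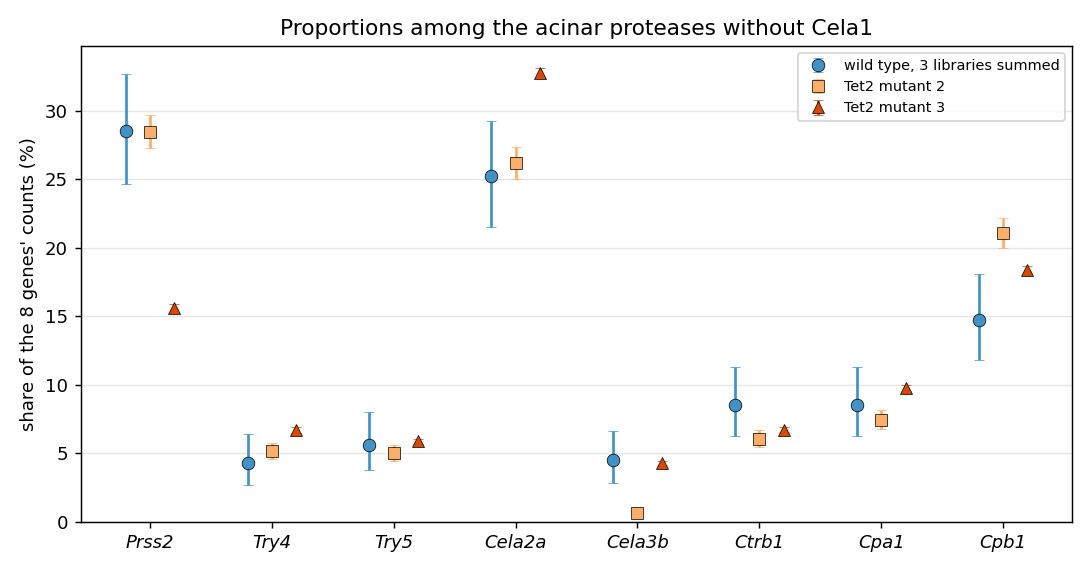
Share of each gene in the summed counts of the 8 proteases other than Cela1, in percent, with exact 95% binomial intervals for counting error. Blue points sum the 3 wild-type libraries (515 counts), and the 2 mutant libraries are shown singly. Prss2 is at 28.5% in the wild type and in mutant library 2 and at 15.6% in library 3.

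Set against each other, the mutant libraries did not hold the proteases in a fixed ratio. Library 3 exceeded library 2 by 1.88-fold for Prss2 (1.78 to 1.98), 2.08-fold for Cela1, 2.99-fold for Cpb1, 3.82-fold for Ctrb1, 4.01-fold for Try5, 4.29-fold for Cela2a, 4.47-fold for Try4, 4.48-fold for Cpa1 (4.05 to 4.96) and 22.6-fold for Cela3b (16.3 to 32.3). The ratio was 2 or more for 8 of 9 genes, against 25.4% of the 11514 genes with 10 counts or more in both libraries, whose median ratio was 1.06. The 9 genes had a median of 4.01. The 11 other acinar genes that were more than 10-fold above the pooled wild type in both libraries and had 10 counts or more in each ranged from 1.13 for the ribonuclease Rnase1 to 17.2 for the colipase Clps, with a median of 2.83. Another 3 acinar genes at 10-fold or more had 9, 6 and 3 counts in library 2, and gave ratios of 29.2 for Pnliprp2, 18.5 for Amy2b and 12.4 for Serpini2. Ratios among zymogens therefore differed between these libraries by more than counting error, with 1 library on each side and no replicate check. TMM-adjusted sizes lowered the log2 ratio of the sum of 9 from 1.65 to 1.34.

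**Figure D3:**
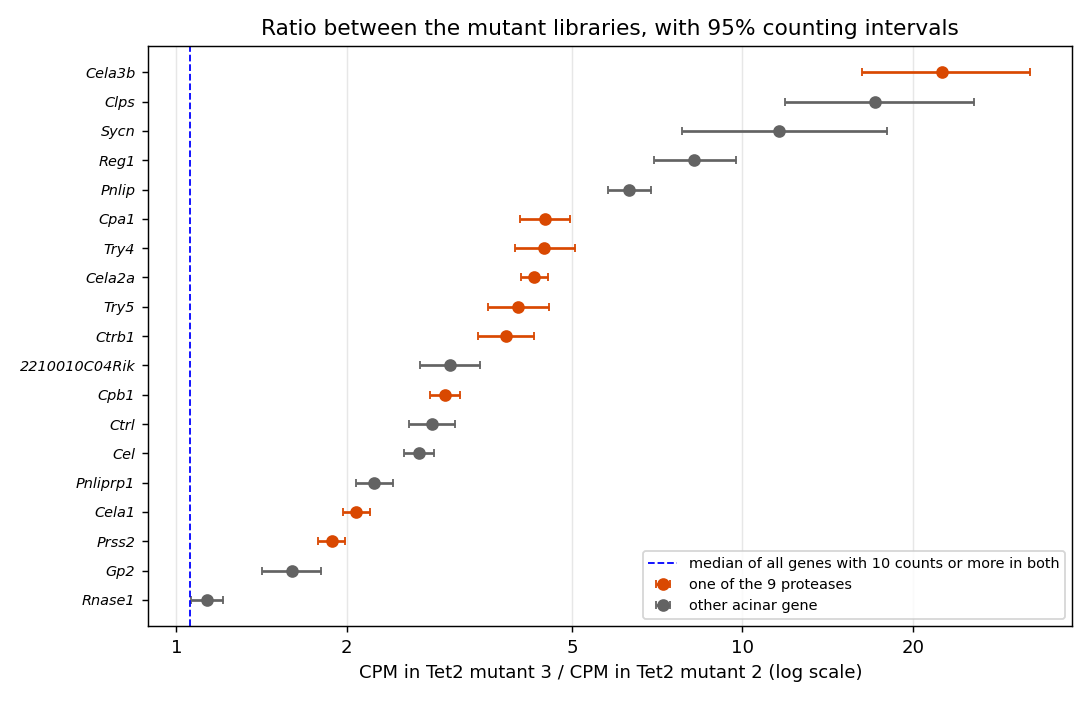
Ratio of the level in mutant library 3 to that in library 2 on a log scale, with exact 95% intervals for counting error. Orange points are the 9 proteases (1.88 to 22.6), and grey points are 10 of the 11 other acinar genes compared in the text (1.13 to 17.2). Those 11 had 10 counts or more in both libraries and were more than 10-fold above the pooled wild type in each. The dashed line is the median of all genes with 10 counts or more in both libraries (1.06).

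Across the 19 acinar genes compared (the 8 proteases and those 11), log2 levels in the mutant libraries correlated with Pearson r = 0.79 and Spearman rho = 0.80. Levels in the pooled wild type correlated with those in mutant libraries 2 and 3 with r = 0.75 and 0.77. The points are genes measured in the same libraries and not replicates, and share library, depth and gene length. All 19 were also chosen as higher in the mutant than in the wild type. That choice bears on the correlations with the wild type, which carry no test. The log2 ratio of the mutant libraries had r = -0.40 with log2 exon length.

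Other secreted products of the acinar cell were also higher in the mutant. The lists used here were written with earlier results of these data known, so their counts are a description. Some of the genes also passed the filter on low counts only through the mutant libraries, so their calls follow in part from the filter. Of 50 listed genes other than the 9 proteases, 21 were tested and 14 were called higher and 0 lower (edgeR's quasi-likelihood test, Benjamini-Hochberg adjusted p under 0.05; background 10.6% higher and 4.43% lower), with a median log2 fold change of 7.68 against -0.07 over all tested genes. The count was 9 of 20 tested without wild-type library 1, and 29 of 30, of which 26 were higher, without mutant library 2. Over all genes 1801 were higher and 755 lower, against 1419 and 1837 with upper-quartile scaling and 1181 and 2877 with total counts, and the acinar genes called higher numbered 14 under each of these scalings, with 1 and 3 called lower.

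Of 13 listed lipases, amylases and nucleases 7 were tested and 7 were called higher. Amy2b (0, 0 and 1 counts in wild-type libraries 1 to 3), Pnliprp2 (0, 3 and 2) and Clps (5, 5 and 2) passed the filter on low counts through the mutant libraries, so their calls follow in part from the filter. Cel, the bile salt-dependent lipase, stood at 0.297, 0.387 and 0.409 CPM in the wild type, against 67.4 and 181 CPM in mutant libraries 2 and 3 (log2 fold change 8.86 ± 0.49 SE, adjusted p = 0.000728). Pnlip, the main triglyceride lipase, rose from 0.429 ± 0.0796 (SD, n = 3) to 116 ± 119 CPM (SD, n = 2; edgeR's quasi-likelihood adjusted p = 0.00156), and Rnase1, the pancreatic ribonuclease, from 0.244 ± 0.0325 to 71.5 ± 6.21 CPM (adjusted p = 0.000728). Rnase1 was thus near equal in the mutant libraries where Pnlip was not. The 5 Amy2a genes, near-identical amylase copies whose counts are therefore uncertain, had 0 counts in every library.

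Of the other proteases and their inhibitor 3 of 5 tested genes were called higher, among them the chymotrypsin-like Ctrl and the trypsinogen gene 2210010C04Rik. Ctrl stood at 29.0 and 82.1 CPM in mutant libraries 2 and 3, against 0.610 to 1.22 CPM in the wild type. Ctrc, which RefSeq lists as a transcribed pseudogene in this assembly, and Spink1, the trypsin inhibitor of the acinar cell, had 0 counts in every library, where the interval of Ctrc holds Cela2a. Of granule and regenerating proteins 4 of 5 tested were called higher, among them Gp2, the main protein of the zymogen granule membrane, at 18.7 and 29.8 CPM against 0.0414 to 0.0930 CPM, and Reg1, a secreted lectin, at 8.48 and 69.6 CPM against 0.110 to 0.335 CPM. Sycn, a granule protein, was at 1.43 and 16.6 CPM and lost its call without wild-type library 1 (edgeR's quasi-likelihood adjusted p = 0.0824). Gp2 (5, 3 and 5 counts in wild-type libraries 1 to 3), Sycn (2, 7 and 3) and Serpini2 (0, 0 and 0) passed the filter on low counts through the mutant libraries. So did Reg1 (7, 11 and 18). Their calls therefore follow in part from the filter.

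Genes that regulate the acinar programme were at 0 or were not called. Of 4 tested genes in the list of transcription factors, receptor and secretory machinery, 0 were called by edgeR's quasi-likelihood test or by DESeq2, with 1 at an unadjusted p under 0.05 in each, which does not show that they were unchanged. Ptf1a, the factor that acinar genes need, and the cholecystokinin receptor gene Cckar had 0 counts in all 5 libraries, and Rbpjl, Nr5a2 and Gata4 had 0 counts in both mutant libraries. A count of 0 allows up to 0.172 CPM in mutant library 2 and 0.0496 CPM in library 3. Bhlha15, which acinar and plasma cells share, was at 1.64 to 2.17 CPM in the wild type, against 0.286 and 3.97 CPM in mutant libraries 2 and 3. Pdia2, a disulfide isomerase, was at 35.9 to 73.2 CPM in the wild type, against 20.7 and 17.5 CPM in the mutant (adjusted p = 0.155).

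Markers of other pancreatic cell types were at low levels in both genotypes. Of 14 islet genes, 7 had 0 counts in all 5 libraries, among them Ins1, Ins2, Sst, Ppy and Iapp, and the list summed to 0.156 to 0.632 CPM in the wild type and to 0.172 and 1.19 CPM in the mutant. The mutant sums were Pcsk1 alone (3 and 72 counts in libraries 2 and 3), with every other listed islet gene at 0 counts. Of 10 duct genes, Krt19, Onecut1 and Slc4a4 had 0 counts in all libraries, and the list summed to 1.82 to 2.32 CPM and to 0.515 and 2.78 CPM. Of 3 tested duct genes 0 were called by edgeR's quasi-likelihood test, with 3 at an unadjusted p under 0.05, and DESeq2 called 1 higher and 1 lower. The sum hid opposite directions: the mucin Muc1 was at 0.1301 to 0.188 CPM in the wild type, against 0.172 and 2.63 CPM in mutant libraries 2 and 3 (edgeR's quasi-likelihood adjusted p = 0.0631), and the keratin Krt7 at 0.911 to 1.68 CPM and at 0.286 and 0.0826 CPM (adjusted p = 0.125). Of 12 liver genes 10 had 0 counts in both mutant libraries, Alb among them, and the list's sum of 250 to 315 CPM in the wild type and 348 and 893 CPM in the mutant was nearly all transferrin (Trf), which macrophages also make. Of the tested genes of intestine and stomach, adipose tissue and skeletal muscle 0 were called by edgeR's quasi-likelihood test. DESeq2 called 3 lower, 1 lower and 1 higher in these lists. Of salivary gland genes both tools called 0 higher and 1 lower. Of 14 genes of spleen and lymph node stroma and marginal zone 6 were tested and 3 were called higher (Cxcl13, Ccl19 and Marco), against 10.6% of all tested genes. Ccl19 (3, 1 and 0 counts in wild-type libraries 1 to 3) passed the filter on low counts through the mutant libraries. Its call therefore follows in part from the filter. Marco, a scavenger receptor, had 5 counts in mutant library 2 (0.286 CPM, against 0.0967 to 0.242 CPM in the wild type) and 574 in library 3. Cxcl13, a chemokine that draws B cells to follicles, rose from 0.652 ± 0.0721 (SD, n = 3) to 186 ± 67.9 CPM (SD, n = 2; edgeR's quasi-likelihood adjusted p = 0.000728) and was higher in mutant library 2 (234 CPM) than in library 3 (138 CPM), the reverse of the proteases. The source of the acinar transcripts was not tested.

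**Figure D4:**
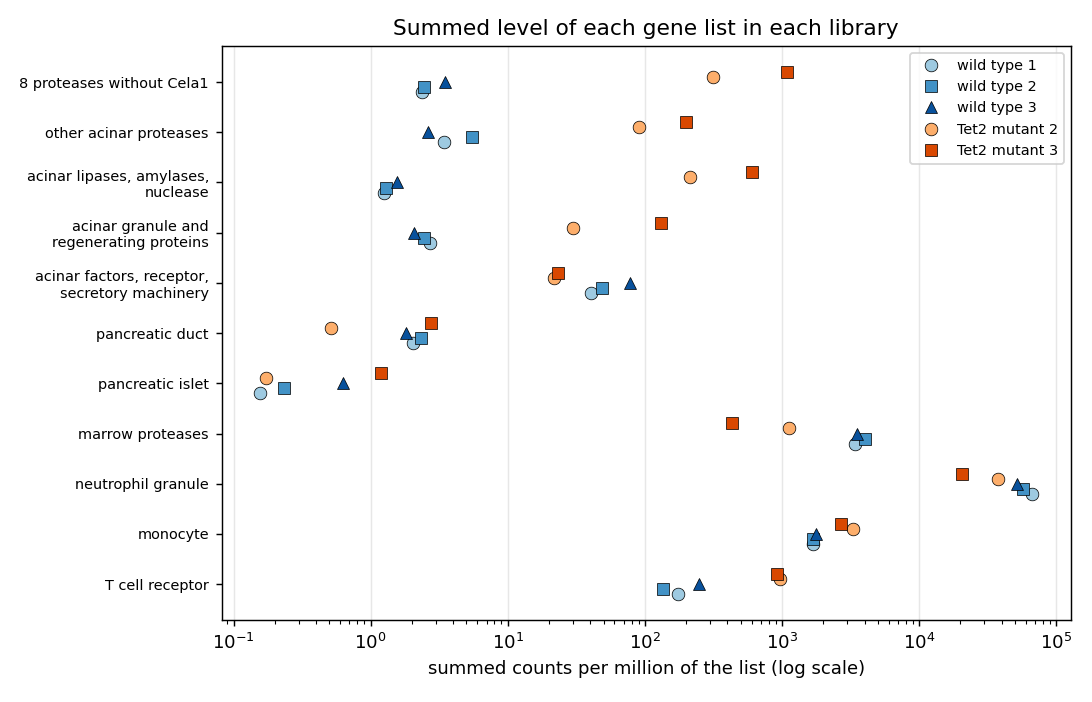
Summed level of each gene list in each library, in CPM on a log scale. Lists of acinar products are separated by genotype, with 316 and 1083 CPM for the 8 proteases in the mutant, while the duct list overlaps between the genotypes at 0.515 to 2.78 CPM.

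Proteases of the same families that marrow cells make were not called, and Elane, Prtn3 and Ctsg had lower values in both mutant libraries than in any wild-type library. Of 12 tested genes 0 were called by edgeR's quasi-likelihood test, with 4 at an unadjusted p under 0.05, and DESeq2 called 4 lower, so the call depends on the tool. Elane, the neutrophil elastase, stood at 2237, 2400 and 2027 CPM in the wild type, against 639 and 136 CPM in mutant libraries 2 and 3 (log2 fold change -1.89 ± 0.67 SE, adjusted p = 0.0866). Prtn3 and Ctsg, its partners in the azurophil granule, stood at 223 and 46.3 CPM and at 86.1 and 23.3 CPM in the mutant against 572 to 849 CPM and 310 to 383 CPM. Both mutant libraries lay below every wild-type library for these 3 genes, as for 46.8% of tested genes. Without mutant library 2, 8 of the 12 were called, 5 lower and 3 higher, and without library 3, 4 were called lower. The basophil protease Mcpt8 stood at 120 to 229 CPM in the wild type and 113 and 130 CPM in the mutant (edgeR's quasi-likelihood adjusted p = 0.956). The granzymes Gzma and Gzmb were at 2.12 and 1.66 CPM in mutant library 2 but at 25.3 and 17.5 CPM in library 3. Their wild-type values were 1.78 to 7.19 and 3.13 to 3.96 CPM. The remaining named relatives, Prss57, Cpm and Cpd, had adjusted p-values of 0.203 to 0.235.

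The genes whose pattern over the 5 libraries was most like that of the proteases were sought among the tested genes outside the set, by the distance between centred log2(CPM + 0.1) values and the median of the 9. Of the 10 nearest, 7 were on the acinar lists, among them Pnlip (distance 0.44), Pnliprp1, Cel, Gp2, Reg1 and Rnase1 (1.52). The other 3 were not: the complement gene C6 at 17.8 and 30.2 CPM in mutant libraries 2 and 3, the metalloprotease gene Adamdec1 at 39.2 and 71.0 CPM, and the MHC class I gene H2-M2 at 89.2 and 166 CPM. The 9 proteases were chosen as higher in the mutant, and the acinar lists were written with earlier results known. The count of 7 of 10 is therefore a description. Gp2, Reg1 and C6 also passed the filter on low counts through the mutant libraries. Of the 9 proteases themselves Cpa1 lay nearest the median (0.05) and Cela1 farthest (6.57). Cela1 and Cela3b (2.48) both lay farther from it than any of the 10 nearest genes.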

How the data were processed

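RNA was sequenced from 5 mouse bone marrow samples, 3 wild type and 2 Tet2 mutant. The deposited files hold gene counts made by the authors. The submitters' processing notes name Trimmomatic (a read trimmer), STAR (an aligner) and the build mm10, with no settings. Not given in the sources used here were versions, the read counter, its annotation and its strand setting. The libraries were made with a SMARTER kit per the labels' protocols, which name no molecular identifiers, so intervals and floors cover counting error only.

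CPM was taken over total gene counts (17459808 to 72414875). Genes kept by filterByExpr (17062) were compared between genotypes with edgeR 4.0.16 (TMM, quasi-likelihood, Benjamini-Hochberg) in R 4.3.3, with DESeq2 1.42.0 as an alternative; the scripts were tested on simulated data. Ratios to the wild type use counts pooled over its 3 libraries. Positions and exon lengths come from GENCODE M21 (GRCm38), which held 53292 of the symbols. The 9 proteases, the lists and the alternatives were chosen with earlier results of these data known. Named genes are the 9 proteases, up to 3 per list with the highest mean CPM over all libraries, list genes at 0, relatives from marrow at 1 CPM or more, neighbours in the genome and the 10 most like genes. Trbc1, Trbc2, Ccl19, Alb, Clps, Pnliprp2, Amy2b, Serpini2, Cd4, Cd8a, Rbpjl, Nr5a2, Gata4 and the genes of low count in the closing section were chosen after their values were seen. An item that the rule names is not reported here.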

Additional observations from a re-analysis of the deposited data

How the results depend on the processing

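Of 2556 genes called, the count was 5109 with DESeq2, 4058 with total counts, 4557 with no filter, 984 with the replicate block, and 622 to 10862 when 1 library was left out. Wild-type and mutant libraries alike carry the labels 2 and 3. The deviations of libraries with 1 number from their genotype mean had correlations of -0.03 and -0.02. With 2 mutant libraries the mutant deviations are exact opposites, so these values are not independent. They cannot decide whether libraries with 1 number also shared a preparation or batch, which was not tested. Of the other acinar genes 14 were called, against 23 with no filter, 11 with the replicate block and 9 to 29 with 1 library left out. Of the marrow proteases 0 were called, against 4 with DESeq2, upper-quartile scaling, total counts, no filter or the replicate block, and 0 to 8 with 1 library left out. A lone mutant library was given the spread of the wild-type group.

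The log2 ratio of the summed 9 proteases, 3.90, ranged from 2.85 to 4.50 with 1 library left out and was 7.98 without Cela1, an alternative chosen after seeing the data. The log2 ratio of mutant library 3 to 2, 1.65, was 1.34 with TMM-adjusted sizes, 1.36 with DESeq2 size factors, 2.005 as the median over genes and 1.78 without Cela1, also chosen after seeing the data. The trypsinogen share of the 9 genes' counts in mutant libraries 2 and 3, 30.2% and 24.1%, was 51.0% and 41.6% per kilobase of exon, 33.0% and 27.3% with the other trypsinogens added, and 40.7% and 32.9% per kilobase of the longest coding transcript, the last chosen after seeing the data. It was higher in library 2 under each. Of 264 values for 22 named list genes under alternatives, 221 kept their direction and side of the threshold, 30 gained a call, 1 lost it and 12 changed sign. Bhlha15 (log2 fold change 0.61) was -2.03 without mutant library 3, -0.26 with the replicate block and 1.45 without library 2. Without mutant library 3 Gzma (1.76) was -0.66 and Gzmb (1.82) -0.45, against 2.61 and 2.65 at the other end, without library 2. Cpa3 (-0.37) was 0.10 without wild-type library 2, 0.20 without mutant library 2 and -1.39 without mutant library 3. Mcpt8 (0.03) was -0.26 with upper-quartile scaling, -0.49 with total counts, -0.16 with the replicate block, and -0.039 with the filter at 1 CPM, and with 1 library left out it ranged from -0.035 (wild-type library 1) to 0.45 (wild-type library 2), with -0.03 without mutant library 2. Of these 12, Bhlha15 without mutant library 3 was called. The cause of these changes was not tested. Counts of 5 to 54 per wild-type library for the proteases other than Cela1 limit their wild-type values.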

Other observations

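Several minor acinar transcripts were counted in mutant library 3 but hardly or not at all in library 2, whose depth was lower. Reg3b, a bactericidal lectin, had 148 counts (2.45 CPM) in library 3 and 0 in the other 4 libraries, where 0 counts allow up to 0.172 CPM in library 2. Pla2g1b, the pancreatic phospholipase, had 63 counts (1.04 CPM) in library 3 and 0 elsewhere. The water channel gene Aqp12 had 113 counts in library 3 and 1 in library 2, and the trypsinogen-like gene Gm2663 had 237 and 1. Reg3b and Pla2g1b each stood above the limit that 0 counts allow in library 2, and with 1 library on each side these values carry no test.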
